A study of Mus musculus with 67 samples.

Results

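Treatment with lipopolysaccharide (LPS) for 6 h was set against vehicle in cultured mouse microglia without Cre. The comparison comprised 6 LPS and 6 vehicle libraries, each LPS library sharing a culture code with 1 vehicle library, and these 12 were picked by their labels from the 34 culture libraries among the 67 libraries of the series. All 12 came from Orai1 fl/fl mice (called WT), 3 female and 3 male cultures. The floxed gene encodes a calcium channel subunit. No Cre was present in WT, but every culture received 1 µM OH-tamoxifen, the agent that activates the inducible Cre of the KO cultures (Orai1fl/fl Cx3CR1-cre/ERT2). Per the labels, hippocampi of pups at postnatal day 2 to 5 were grown as mixed glia, and the microglia were shaken off the astrocyte layer and kept for 2 days in serum-free medium with TGF-β2 at 2 ng/ml and CSF1 at 10 ng/ml. The LPS group then received E. coli LPS at 10 ng/ml for 6 h, and the vehicle group an equal volume of DMSO.

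LPS is a component of the outer membrane of Gram-negative bacteria. Microglia, the resident macrophages of the brain, sense it through Toll-like receptor 4 with CD14 and MD-2. Signalling through the adaptors MyD88 and TRIF activates NF-κB and interferon regulatory factors, which drive genes for cytokines, chemokines and interferon-induced proteins, while many genes of the resting state fall. This is background only. The rows of the count tables are unnamed, so a row (1 feature of the table) is given by its position below the header, and no member of these pathways was looked up. For the same reason neither microglial or astrocyte markers nor the floxed gene could be checked against the labels. In bulk RNA, fewer cells of a type and less RNA per cell cannot be told apart.

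LPS libraries held 8589766 to 12421327 counts and vehicle libraries 9116455 to 15253502. Of 45707 rows, 28306 had a count in any culture library and 15979 passed the filter on low counts. TMM scaling, which corrects for a few abundant rows taking up counts, gave factors of 0.642 to 0.909 for LPS and 0.98 to 1.067 for vehicle libraries. CPM values (counts scaled to a common library size) of single rows below carry this scaling. Replicates of a group differed by more than sampling noise in all 12 pairs (chi-square per degree of freedom 16.9 to 63). The labels number the cultures but do not say which animals or litters they came from, so p-values measure the spread between these cultures. Some libraries stood apart. In WT female culture 3, 3 rows specific to males summed to 67.1 CPM of the raw total with LPS and 78.7 CPM with vehicle. The same rows summed to 121 to 148 CPM in the 6 WT male libraries and to 0.165 to 5.41 CPM in the other 4 WT female libraries. Its 2 rows specific to females summed to 212 CPM with LPS and 442 CPM with vehicle, against 533 to 859 CPM in the other WT female libraries and 0 to 25.1 CPM in the WT male libraries. These 5 rows had been chosen in sorted cells of the same series. Cultures 3 and 4 also lay apart on the second principal component, and the vehicle library of WT female culture 14 held more of the strongly induced rows than the other vehicle libraries.

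LPS changed the level of nearly as many rows as it left uncalled. In edgeR's quasi-likelihood test, 7675 of 15979 rows had a Benjamini-Hochberg adjusted p under 0.05 and are called changed, which is 48.0% of the rows tested. Of all rows, 21.8% (3489) were higher with LPS and 26.2% (4186) lower. This balance turned with RLE scaling, to 4082 higher and 3604 lower. Without culture 3 the counts were 3564 and 4107, and without cultures 3 and 4 they were 3317 and 4504.

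The rises reached further than the falls. A change of more than 2-fold was fitted for 1583 of the called rises and 1832 of the called falls. More than 4-fold changes numbered 799 upward and 504 downward. Beyond 16-fold there were 267 rises and 42 falls, beyond 64-fold 118 and 7, and beyond 256-fold 40 and 1. The typical called row moved by much less, with a median log2 change of 0.89 among rows that rose and -0.90 among rows that fell, beside -0.087 over all rows tested. A test against a 2-fold change, stricter than counting fitted values over 2-fold, called 1075 rows higher and 835 lower.

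Most called rows moved alike in the single cultures. The 6 pairs of an LPS library and the vehicle library of its culture had the same direction in 3024 (86.7%) of the risen rows and 3553 (84.9%) of the fallen ones. The rows were called on these same libraries, so the call itself favours such agreement, and its share over all rows is not given. The lowest LPS library lay above the highest vehicle library in 2059 of the risen rows, and the highest LPS library below the lowest vehicle library in 2273 of the fallen ones. Over all rows tested, such separation was seen upward in 12.9% (2069) and downward in 14.3% (2285).

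**Figure D1:**
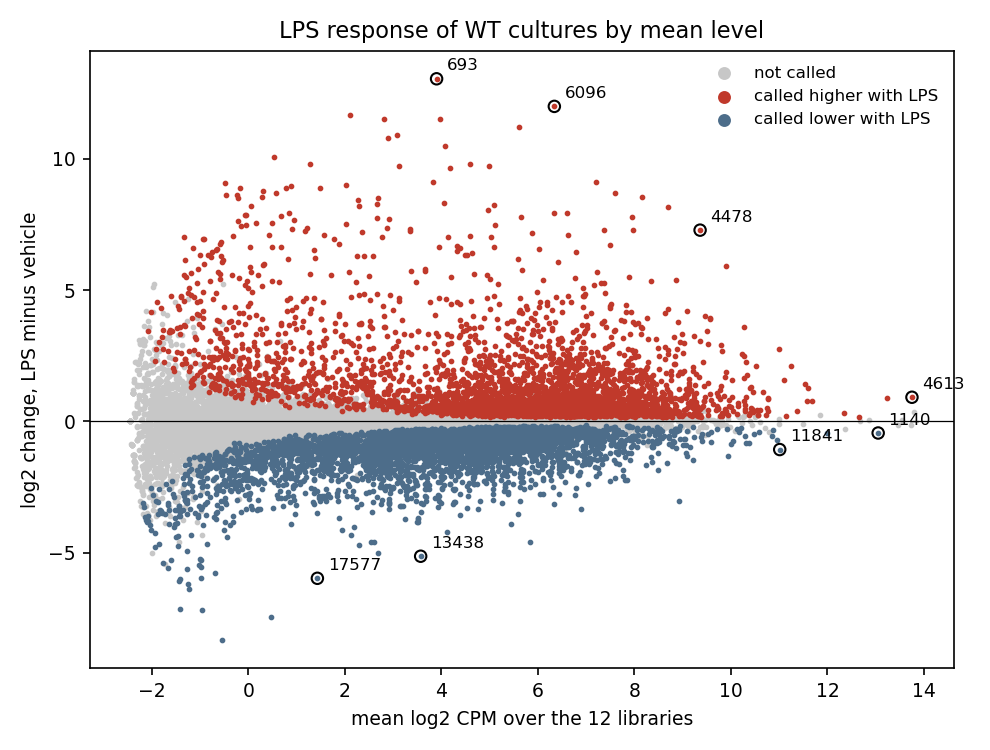
Fitted log2 change, LPS minus vehicle, against mean log2 CPM over the 12 WT culture libraries, 1 point per row tested. Rows called higher are red, rows called lower blue, and the 8 circled rows are described in the text. The rises extend past 12 on the log2 scale, while the deepest circled fall, of row 17577, is at -5.97.

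The direction of change differed with the level of the row. The mean level used for this covers LPS and vehicle libraries alike, so a strong rise itself moves a row upward on that scale. Among 2970 rows with a mean log2 CPM of 2 to 4, 11.4% were called higher and 39.7% lower. Among 4231 rows at 4 to 6 these shares were 23.8% and 35.6%. At 6 to 8 (2778 rows) they were 44.3% and 20.6%, and at 8 to 10 they were 55.8% and 12.6%. Of the 93 rows above 10, 57.0% were higher and 17.2% lower. The rows below 0 (2833) had few calls, 7.70% and 9.81%, and the largest median standard error of the log2 change, 0.74, against 0.13 at 4 to 6. Fewer calls at low levels were thus accompanied by less precise measurements.

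**Figure D2:**
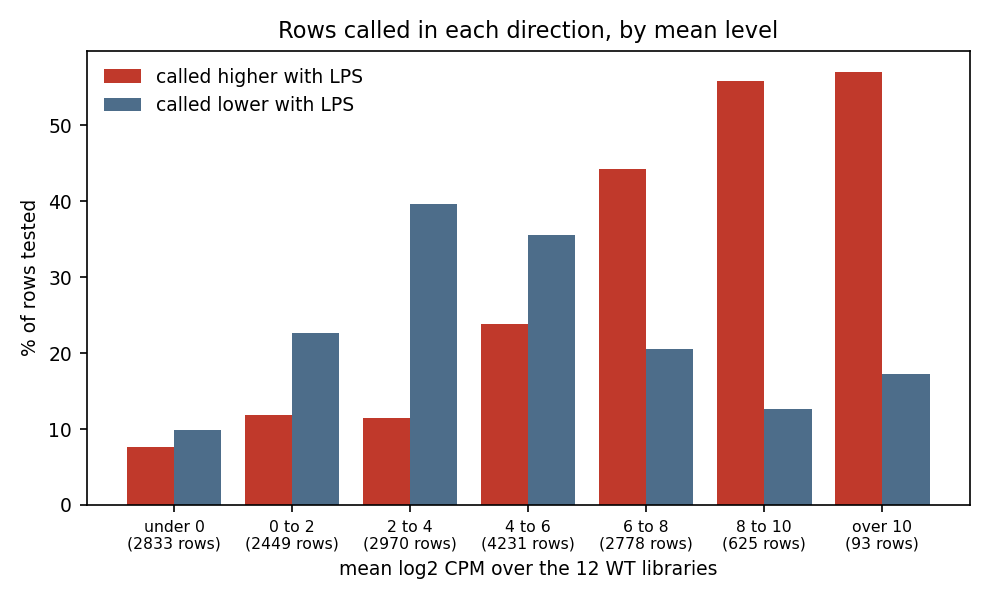
Percent of tested rows called higher (red) and lower (blue) with LPS, by mean log2 CPM over the 12 WT culture libraries, with the number of rows under each pair of bars. The share called higher is 11.4% at a level of 2 to 4 and 57.0% above 10, while the share called lower is 39.7% at 2 to 4 and 17.2% above 10.

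A large share of the RNA counts was taken over by the induced rows. Rows that rose together held 52.9% to 64.3% of all counts in the LPS libraries and 33.5% to 35.7% in the vehicle libraries, with no overlap. Rows that fell held 9.48% to 14.5% with LPS and 26% to 27.5% with vehicle. The rows were chosen on these libraries, so the separation follows from the choice and only its size is described. The 267 rows more than 16-fold higher held 10.9%, 12.9% and 6.37% of the counts in LPS libraries of female cultures 12, 14 and 3, and 10.3%, 5.31% and 9.85% in those of male cultures 10, 4 and 9. With vehicle the same rows held 0.243%, 0.429% and 0.173% in female cultures 12, 14 and 3, and 0.210%, 0.159% and 0.174% in male cultures 10, 4 and 9. Cultures 3 and 4 were thus the lowest of the LPS libraries, and culture 14 was the highest in both groups.

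The set of most abundant rows changed in part. The 100 most abundant rows with LPS and the 100 most abundant with vehicle shared 56 rows. Of the LPS list, 79 rows were called higher, 6 lower, and 21 were more than 16-fold higher. Of the vehicle list, 42 rows were called higher and 24 lower. Each list was chosen by level in its own group. Rows raised by LPS thus enter the LPS list more readily, and rows lowered by LPS the vehicle list. Over all 15979 rows tested, 21.8% were called higher, 26.2% lower, and 267 were more than 16-fold higher. Of the 93 rows with a mean log2 CPM above 10, 57.0% were called higher and 17.2% lower. Within single cultures the lists shared 42 to 64 rows, and cultures 3 and 4 shared the most (64 and 63). The 100 most abundant rows of each library held 27.3% ± 1.45 of the counts with LPS and 24.0% ± 1.18 with vehicle (SD, n = 6 each). The difference of 3.34 percentage points was larger than the spread (two-sided exact permutation test, p = 0.00649; smallest possible 0.00216) and was positive in 6 of 6 cultures. For the 10 most abundant rows the sign turned, to a difference of -1.01 points (exact p = 0.0368).

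Rows detected at 1 CPM or more of the raw total numbered 12403 ± 540 with LPS and 12982 ± 355 with vehicle (SD, n = 6 each). The difference of -579 rows had a two-sided exact permutation p of 0.0584 between groups. It was negative in 6 of 6 cultures, with an exact p of 0.0312 over the pairs, the smallest they can give. When CPM was scaled by TMM the difference was -34.2 rows (exact p = 0.814). At least 1 CPM in all 6 LPS libraries, with at most 3 counts over the 6 vehicle libraries together, was found for 17 rows, 4 of them with no vehicle count at all. Their median of mean LPS levels was 4.48 CPM and the highest 25.2 CPM. The converse, rows present in all vehicle libraries and at most 3 counts with LPS, was found for 0 rows.

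Rows 4613, 4478, 1140 and 11841 are given for the size of their change in absolute level, the largest gains and losses of mean CPM among called rows with 1 direction in all 6 pairs. Row 4613 was at 22400, 20000 and 13300 CPM in LPS libraries of female cultures 12, 14 and 3, and at 20800, 18300 and 19700 CPM in those of male cultures 10, 4 and 9. With vehicle it was at 9610, 9420 and 7250 CPM in the same female cultures and at 11400, 11600 and 11900 CPM in the same male cultures. It was already among the most abundant rows at rest, and the LPS libraries lay above the vehicle libraries without overlap. Its log2 change was 0.92 ± 0.12 (SE, edgeR adjusted p = 2.82e-07).

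Row 4478 gained almost as many CPM from a low level. It was at 10600, 12200 and 5320 CPM with LPS in female cultures 12, 14 and 3, and at 9720, 4320 and 9640 CPM in male cultures 10, 4 and 9. With vehicle it was at 63.6, 98.2 and 37.7 CPM in the females and 47.7, 41.6 and 48.2 CPM in the males. Every LPS library was far above every vehicle library, and cultures 3 and 4 were the lowest of the LPS group. The log2 change was 7.28 ± 0.38 (SE, adjusted p = 6.58e-14, edgeR).

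Row 1140 lost most in absolute level, by a modest factor. LPS libraries of female cultures 12, 14 and 3 were at 6680, 6470 and 6960 CPM and those of male cultures 10, 4 and 9 at 8450, 8470 and 6970 CPM. Vehicle libraries were at 8210, 9650 and 9210 CPM in females and 11300, 11500 and 10100 CPM in males. The groups overlapped, since LPS libraries of cultures 10 and 4 exceeded the vehicle library of culture 12. Every culture was lower with LPS than with its own vehicle, and the log2 change was -0.44 ± 0.10 (SE, edgeR adjusted p = 0.000779). Row 11841 averaged 1470 ± 474 CPM with LPS and 3050 ± 481 CPM with vehicle (SD, n = 6 each), with a log2 change of -1.07 ± 0.16 (adjusted p = 2.68e-06, edgeR). Its LPS library of male culture 4, at 2380 CPM, exceeded the vehicle library of female culture 14, at 2180 CPM, whereas the other LPS libraries lay between 985 and 1400 CPM.

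**Figure D3:**
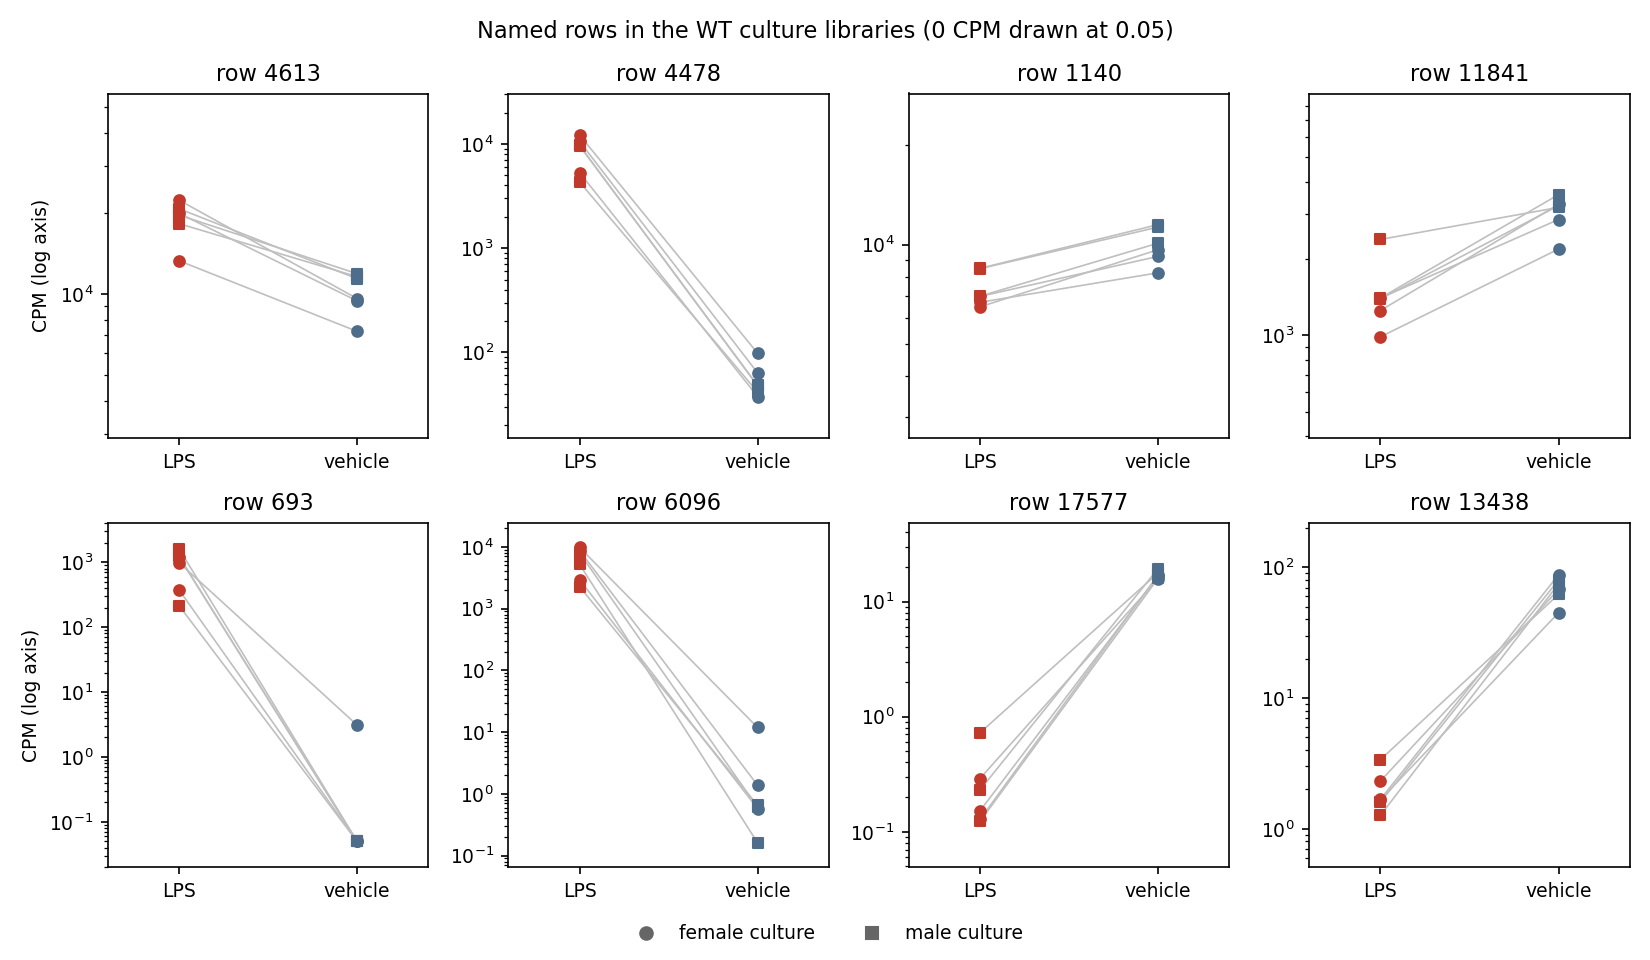
CPM scaled by TMM, on log axes, of 8 rows in the 6 LPS libraries (red) and 6 vehicle libraries (blue) of WT cultures, with lines joining the libraries of 1 culture. Circles are female and squares male cultures, and 0 CPM is drawn at 0.05. All lines of a row run in 1 direction, and for rows 693 and 6096 culture 14 starts highest with vehicle, at 3.10 and 11.9 CPM.

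The rows that led by fold change, among those with a mean log2 CPM of 1 or more, were nearly silent in 1 group. Row 693 was at 1210, 988 and 375 CPM with LPS in female cultures 12, 14 and 3 and at 1620, 215 and 1230 CPM in male cultures 10, 4 and 9. The 6 vehicle libraries held 39 counts, all in culture 14 (3.10 CPM), and 5 libraries had 0. The adjusted p was 1.57e-10 in edgeR, and the fitted log2 change depends on how the zeros are treated: it was 13.04 with all libraries and 16.33 without the vehicle library of culture 14. Row 6096 was at 8720, 9830 and 2950 CPM with LPS in females and at 8000, 2280 and 5240 CPM in males. With vehicle it was at 1.38, 11.9 and 0.579 CPM in the same females and at 0.603, 0.652 and 0.162 CPM in the same males. Its log2 change was 11.99 ± 0.77 (SE, adjusted p = 2.36e-12, edgeR), and 13.10 without the vehicle library of culture 14. Both rows were lowest with LPS in cultures 3 and 4.

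Among rows with a mean log2 CPM of 1 or more, the deepest fitted falls were those of rows 17577 and 13438, both far less abundant. Row 17577 was at 0.290, 0.152 and 0.128 CPM with LPS in female cultures 12, 14 and 3 and at 0.231, 0.724 and 0.123 CPM in male cultures 10, 4 and 9, on 13 counts in all. Vehicle libraries held 15.8 to 19.3 CPM, a narrow range. Row 13438 was at 2.32, 1.68 and 1.67 CPM with LPS in females and at 1.27, 3.38 and 1.60 CPM in males, whereas vehicle libraries held 44.9 to 87.6 CPM. Culture 4 kept the highest level of both rows under LPS. The log2 changes were -5.97 ± 0.34 and -5.13 ± 0.23 (SE, edgeR adjusted p = 2.21e-13 and 9.45e-15).

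The cultures differed in how far they responded. On the first principal component (56.6% of the variance) the LPS libraries lay between 38.4 and 101.9 and the vehicle libraries between -84.8 and -53.7. The second (12.0%) ordered the cultures in much the same way with both treatments. Cultures 3, 4 and 9 had 63.1, 38.2 and 19.6 with LPS and 42.3, 21.1 and 5.9 with vehicle, while cultures 10, 12 and 14 had -21.0, -31.1 and -26.5 with LPS and -35.2, -40.9 and -35.5 with vehicle. Each of these sets held both sexes, 1 female and 2 male cultures in the first and 2 female and 1 male in the second. They split by culture number, with 3, 4 and 9 positive and 10, 12 and 14 negative, and the labels do not say what the number stands for.

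**Figure D4:**
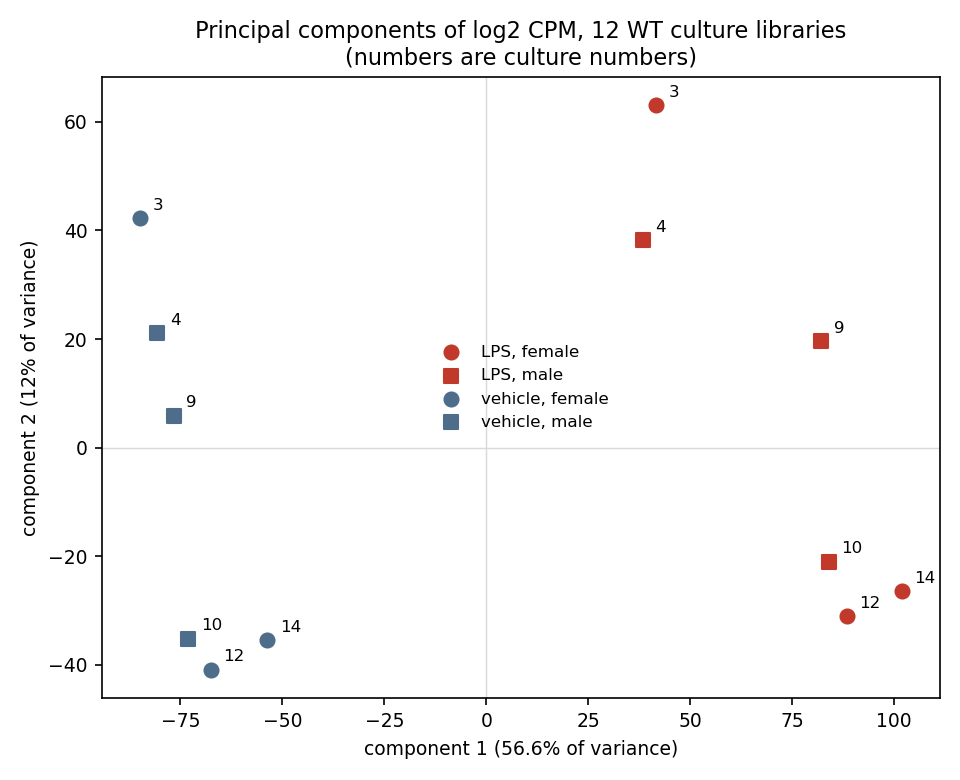
First and second principal components of log2 CPM over the tested rows in the 12 WT culture libraries. Red points are LPS and blue points vehicle libraries, circles female and squares male, numbered by culture. The first component, with 56.6% of the variance, separates the treatments, and on the second, with 12.0%, culture 3 is highest and culture 12 lowest in each.

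Each culture's response was described by the slope of its log2 change, LPS minus vehicle, on the mean change of the other 5 WT cultures. The slope was taken over the 15979 rows. It falls when changes are smaller and also when they are less alike, so it does not measure size alone. It was 1.012, 0.990 and 0.796 in female cultures 12, 14 and 3, and 1.026, 0.743 and 1.030 in male cultures 10, 4 and 9. Cultures 3 and 4 thus had the smallest slopes. The SD of their log2 changes over rows was 1.198 and 1.156, against 1.376 to 1.397 in the other WT cultures. The correlations across rows, which are not independent replicates, were 0.772 to 0.854 (Pearson).

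LPS libraries also varied more among themselves. Over the 7727 rows whose mean log2 CPM reached 4, the median SD within a sex was 0.254 (log2) with LPS and 0.173 with vehicle, and 73.3% of rows had the larger SD with LPS. Without cultures 3 and 4 these values were 0.157 and 0.129, and 59.4% of rows.

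The response was measured in each sex. In females 5912 rows (37.0% of those tested) were called, 2802 higher and 3110 lower, and in males 5560 (34.8%), 2639 higher and 2921 lower. Without culture 3, labelled female and carrying the male-specific rows above, the order turned, with 5931 rows called in males and 5624 in females. That fit held fewer female than male cultures. The order also turned without female LPS replicate 1 (5635 in males, 5087 in females) or 2 (5707 and 4826). It turned likewise without any single female vehicle library. It did not turn without the LPS library of culture 3 alone (5770 in males, 6342 in females). Without cultures 3 and 4 it did not turn either (5750 and 5911). The cause of the turn was not tested. Rows called higher in both sexes numbered 2287, which is 86.7% of the male and 81.6% of the female list. Rows called lower in both numbered 2387, or 81.7% of the male and 76.8% of the female list, and 0 rows were called in opposite directions. Males and females share no library in this comparison.

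The difference itself, the response of males minus that of females, gave 0 called rows in edgeR (0.00% of those tested), while 471 rows had an unadjusted p under 0.05. A share of 5% of the rows tested would be 799 rows. The number at an unadjusted p under 0.05 ran from 462 to 1051 when 1 library was left out, highest without the LPS library of culture 3, and was 871 without any library of culture 3. DESeq2 called 2 rows and voom 0. The row with the lowest p was row 5068. With LPS it was at 14.5, 19.6 and 14.6 CPM in male cultures 10, 4 and 9 and at 31.1, 32.8 and 30.0 CPM in female cultures 12, 14 and 3. With vehicle it was at 20.5, 21.8 and 21.7 CPM in the males and at 17.1, 18.1 and 22.7 CPM in the females. The sexes did not overlap with LPS, a separation that choosing the row by its lowest p favours, and its share over all rows is not given. The log2 change was -0.40 in males and 0.70 in females. The difference of -1.10 ± 0.23 (SE) did not pass in edgeR (adjusted p = 0.81) and did in DESeq2 (adjusted p = 0.0476, where the alternatives run from 0.0476 to 1). The response slopes averaged 0.933 ± 0.165 in males and 0.933 ± 0.119 in females (SD, n = 3 each; exact permutation p = 1, where 0.10 is the smallest possible).

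The response was also compared between genotypes. KO cultures carried the Cre in addition to the floxed gene, so loss of the gene and presence of Cre cannot be told apart. The response differed in 2527 rows (15.8% of those tested). Without WT cultures 3 and 4, which had the smallest WT slopes, it differed in 3936 rows, a choice that favours more differences. Without 1 LPS library of the other WT cultures the count was 2131 to 2369. The 267 rows more than 16-fold higher in WT, a list chosen on the WT libraries, held 2.19% to 4.52% of counts in the KO LPS libraries, against 5.31% to 12.9% in the WT LPS libraries. With vehicle they held 0.130% to 0.196% in KO and 0.159% to 0.429% in WT. On the mean WT change, slopes of the 4 KO cultures with both treatments were 0.609 and 0.481 in female cultures 15 and 16 and 0.635 and 0.557 in male cultures 6 and 18. All lay below the 0.743 to 1.030 of the WT cultures, although the WT profile is by construction nearer to WT cultures, and this difference was not tested. KO correlations with that profile were 0.580 to 0.766 (Pearson). The SD of the log2 change over rows was 0.917 to 0.999 in KO and 1.156 to 1.397 in WT.

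**Figure D5:**
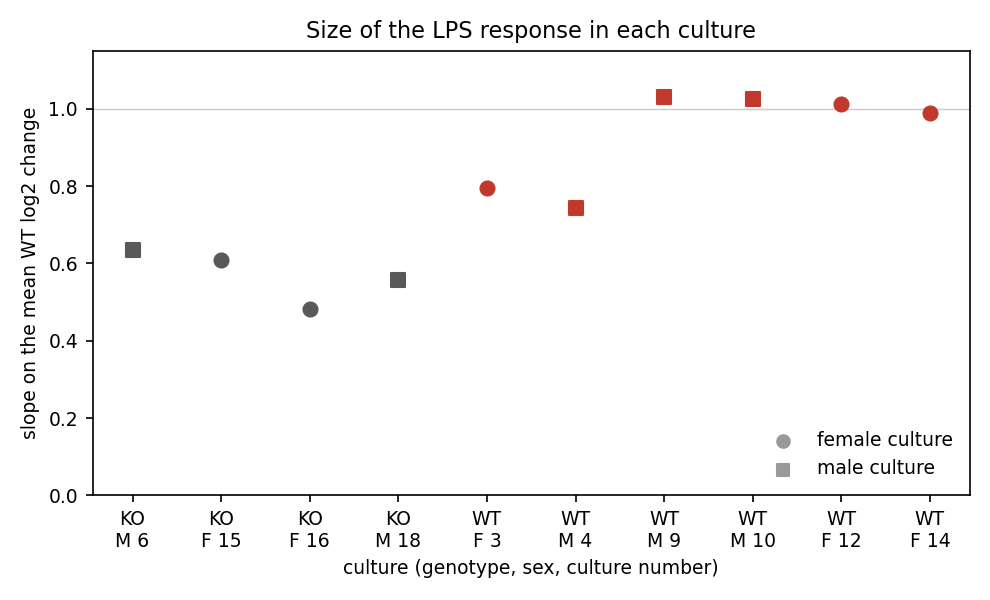
Slope of each culture's log2 change, LPS minus vehicle, on the mean change of WT cultures (the other 5 for a WT culture, all 6 for a KO culture), over 15979 rows. KO cultures are grey and WT cultures red, circles female and squares male. KO slopes run from 0.481 to 0.635 and WT slopes from 0.743, in male culture 4, to 1.030, in male culture 9.

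The named rows that fell furthest in WT fell less in KO. They were chosen for their falls in WT, and the test reuses those WT libraries, so the choice favours smaller falls in KO. Over all rows the KO slopes, 0.481 to 0.635, and SDs of log2 change, 0.917 to 0.999, were also below those of WT. Whether these rows differed more than others was not tested. Row 17577 was at 0.773 to 1.71 CPM in 5 KO LPS libraries, all above the 0.123 to 0.724 CPM of the 6 WT LPS libraries, and at 10.1 to 19.6 CPM in KO vehicle libraries. Its log2 change was -3.40 in KO and -5.97 in WT, a difference of 2.57 ± 0.46 (SE, adjusted p = 0.000421, edgeR). Row 13438 was at 6.56 to 14.2 CPM in KO LPS libraries, against 1.27 to 3.38 CPM in WT LPS libraries, and at 59.0 to 104 CPM in KO vehicle libraries. The difference of its log2 changes was 2.24 ± 0.29 (adjusted p = 1.78e-05, edgeR). Row 4478 was at 1300 to 2630 CPM with LPS in KO, against 4320 to 12200 CPM in WT. With vehicle it was at 8.28 to 21.5 CPM in KO, against 37.7 to 98.2 CPM in WT, so that the genotypes did not overlap with either treatment. The row was chosen for its gain in WT, which favours higher WT levels with LPS. For the named rows, the share of such separation between genotypes over all rows is not given. The log2 change of row 4478 was not shown to differ (-0.12 ± 0.43, adjusted p = 0.909, edgeR). Row 6096 likewise reached 356 to 1300 CPM with LPS in KO, against 2280 to 9830 CPM in WT, with a difference in log2 change of -0.58 ± 1.50 (adjusted p = 0.867, edgeR), an error that leaves either sign possible.

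The culture response overlapped in part with that of microglia sorted from adult WT brains after LPS at 1 mg/kg, measured 6 h or 24 h later. That table differed in age, brain region, preparation and library kit, and its rows were matched by position, since mean levels correlated at 0.853 (Spearman) in that order and at 0.327 to 0.339 when shifted by 1 to 3 rows. At 6 h (3 LPS and 3 vehicle libraries, all male) 6.74% of the sorted table's rows were called higher and 3.73% lower. At 24 h (8 LPS and 6 vehicle libraries) 14.1% were higher and 11.9% lower. Of the 13382 rows tested in both tables, 523 were higher in culture and in sorted cells at 6 h, which is 16.5% of the culture list and 51.3% of the sorted list, beside 23.7% of all these rows called higher in culture. Rows lower in both numbered 240, or 6.16% of the culture list and 49.8% of the sorted list, beside 29.1% lower in culture. At 24 h 924 rows were higher in both (29.2% of the culture and 44.4% of the sorted list) and 684 lower in both (17.6% and 41.8%).

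Opposite calls were fewer than shared calls at each time, and their shares lay somewhat below those over all rows. Of the rows that rose in culture, 94 (2.97%) fell in sorted cells at 6 h and 275 (8.68%) at 24 h. Of all rows tested in both, 3.60% and 12.2% were called lower in sorted cells. Of the rows that fell in culture, 168 (4.31%) rose at 6 h and 456 (11.7%) at 24 h, beside 7.61% and 15.5% of all rows called higher. Most culture calls were small or uncalled in sorted cells: rows that rose in culture had a median sorted log2 change of 0.21 at 6 h and 0.17 at 24 h, those that fell -0.13 and -0.05, and all rows 0.01 at both times. The 6 h and 24 h comparisons share vehicle libraries and were not set against each other.

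The 6 h tests used the 3 male vehicle libraries alone, and the 24 h tests all 6. Of the named rows, 6096 averaged 29.7 ± 7.05 CPM at 6 h (SD, n = 3), against 7.68 ± 1.3 CPM in male vehicle libraries. At 24 h (n = 8) it averaged 69.7 ± 23.7 CPM, against 9.32 ± 3.64 CPM with vehicle (n = 6). Its log2 change was 1.95 ± 0.45 at 6 h and 2.93 ± 0.32 at 24 h (SE, adjusted p = 0.00652 and 1.67e-07, edgeR). The tables were scaled separately, so its levels in culture and in sorted cells are not set against each other. Row 4478 rose at 6 h by 1.55 ± 0.46 (adjusted p = 0.0311, edgeR), to 36.8 ± 19.6 CPM against 12.6 ± 2 CPM in male vehicle libraries. At 24 h it rose by 2.18 ± 0.32 (adjusted p = 1.17e-05, edgeR), to 53.7 ± 15 CPM against 11.8 ± 2.76 CPM with vehicle. Row 693 rose by 5.69 ± 1.42 at 6 h and 4.77 ± 0.95 at 24 h (adjusted p = 0.0112 and 0.000433, edgeR). Its levels were low, at 3.49 ± 2.46 and 2.55 ± 1.41 CPM, against 0.067 ± 0.11 CPM with vehicle (n = 6). Row 17577, which fell in culture, was at 20.6 ± 3.87 CPM at 6 h (n = 3), against 15.4 ± 1.38 CPM in male vehicle libraries. At 24 h (n = 8) it was at 20.6 ± 5.73 CPM, against 15.5 ± 2.39 CPM with vehicle (n = 6). It was not called at either time (adjusted p = 0.472 and 0.198, edgeR). Row 13438 was barely detected in sorted cells, at 0.669 ± 0.485 CPM at 6 h and 0.776 ± 0.463 CPM at 24 h. With vehicle it was at 0.842 ± 0.574 CPM (n = 6), and at 0.946 ± 0.513 CPM in male vehicle libraries.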

How the data were processed

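RNA-seq counts of 34 culture libraries (polyA RNA, 100 ng input) and 33 sorted-cell libraries were used. The values the authors deposited are raw counts, whole numbers for each row. The submitters' processing notes list the build GRCm38, Salmon 1.10.1, STAR 2.7.10a and Trim Galore 0.6.7, and the counting settings and strand are not given in the sources used here. There were 0 columns of another series. Rows were filtered with filterByExpr of edgeR 4.0.16 (minimum count 10, minimum total 15), which kept 99.93% of the culture counts, scaled by TMM and tested by quasi-likelihood F test in R 4.3.3. All 34 culture libraries entered 1 model with a mean per genotype, sex and treatment, the sexes were weighted equally, and no block was used. Sorted cells had a model of their own. Alternatives used limma 3.58.1 (voom) and DESeq2 1.42.0. Tests were two-sided and rows were called at a Benjamini-Hochberg adjusted p under 0.05. The SE of a log2 change is its size divided by the root of its F value. Log2 CPM used a prior count of 2. The script was tested on simulated data. Intervals and errors treat reads without molecular identifiers as counted.

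Whether the culture number pairs the libraries was checked by the correlation, across rows, of the deviations from the group means of same-numbered LPS and vehicle libraries. It was 0.134 to 0.491, over 0.1 in all 6 pairs. In 5 of 6 the own vehicle library correlated best, and for culture 4 another did (0.227 against 0.217). The numbers were taken to pair the libraries, so a fit with the culture as a replicate block stands beside the unblocked one where it changes a call. The rule for naming rows took the 2 largest gains and 2 largest losses of mean CPM among called rows with 1 direction in 6 pairs. The 2 largest fitted rises and 2 largest fitted falls at a mean log2 CPM of at least 1 were added. For males minus females, with no call, the rule took the row with the lowest p. The members, rules and lists were chosen with earlier results of these data known. Alternatives without both cultures 3 and 4, with detection on TMM-scaled CPM, with the sorted overlap without culture 3, and all recomputed counts within a sex and between genotypes were chosen after seeing the data. No gene list, marker or sequence is reported, because the rows carry no names.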

Additional observations from a re-analysis of the deposited data

Results flagged for a closer look

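In 27 groups of 6 libraries, 5 values lay far from the other 5 of their group by Dixon's test (critical value 0.625). By chance the test marks about 1 group in 20 of independent, normally spread values. These groups are not independent and some values lie near 0, so that rate does not apply to them directly. Male culture 4 had the highest level with LPS of row 11841, at 2380 CPM with the next library at 1400 CPM, and of row 17577, at 0.724 CPM with the next at 0.290 CPM. Both rows fall with LPS, and culture 4 also had the smallest response slope (0.743). The vehicle library of female culture 14 was the highest of the vehicle group for row 693, at 3.10 CPM with the other 5 at 0, and for row 6096, at 11.9 CPM with the next at 1.38 CPM. It also held 0.429% of its counts in the rows more than 16-fold higher with LPS, with the next vehicle library at 0.243%. Rows 693 and 6096 belong to that set, so these flags are not separate.

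The response to LPS differed between KO and WT cultures, by a test of the difference itself, in 2527 rows. Of the rows named here, row 17577 had a log2 change higher in KO than in WT by 2.57 and row 13438 by 2.24, both being smaller falls in KO. Both rows were named for their falls in WT, which favours this direction.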

How the results depend on the processing

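Over 92 recomputed counts of rows called by LPS in WT cultures, 89 stayed within 1.5 times the reported count. The exceptions came from the test against a 2-fold change (1075 higher, 835 lower), which by construction asks for more. Leaving out 1 library gave 3119 to 3654 rows higher and 3686 to 4374 lower. Of the 7675 calls, 24.9% were also made by the 2-fold test, 79.6% at an adjusted p under 0.01 and 84.9% to 98.6% under the other settings. The replicate block gave 3861 higher and 4771 lower, with 98.6% of the calls also made. Calls were 45.5% higher as reported, 53.1% with RLE and 53.2% with DESeq2 (4226 higher, 3720 lower).

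The counts within each sex stayed within 1.5 times under every setting run (21 each). Rows differing between KO and WT numbered 3936 without WT cultures 3 and 4, 3408 with the replicate block and 1747 to 3383 when 1 library of either genotype was left out, lowest without KO female LPS replicate 2.

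Males minus females gave 2 calls with DESeq2 and 0 with every single library left out. Their slope difference changed sign with a prior count of 0.5 (-0.00175) or 5 (-0.000656) and ran from -0.0752 to 0.0984 when 1 culture was left out, being -0.0752 without female culture 3, -0.0477 without male culture 10 and -0.0538 without male culture 9. The difference in detected rows passed at 5 CPM (-942, exact p = 0.00649), with the culture as pairs (-579, exact p = 0.0312) and without cultures 3 and 4 (-724, exact p = 0.0286), and ran from -741 to -450 when 1 library was left out. It also passed without the LPS library of culture 3 (-741, exact p = 0.0173) or of culture 4 (-678, exact p = 0.0433), or the vehicle library of culture 10 (-648, exact p = 0.0498). For the 10 most abundant rows the share differed by -1.01 points. With over 2-fold changes required in both tables, the overlap with sorted cells was 184 rows higher and 69 lower at 6 h, and 270 and 147 at 24 h. The share of all rows passing this limit in sorted cells is not given, so these counts are not set against it.

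Of the named rows, 4613, 1140 and 11841 were not called against a 2-fold change (adjusted p = 1, 1 and 0.667), and the other calls held under every setting run. KO minus WT responses of row 4613 passed with the replicate block (-0.34, adjusted p = 0.00546), voom (-0.48, adjusted p = 0.0241), without culture 3 (-0.43, adjusted p = 0.0323), without its LPS library alone (-0.49, adjusted p = 0.0208) and without KO female LPS replicate 1 (-0.54, adjusted p = 0.0411), and over all alternatives its adjusted p ran from 0.00546 to 0.597. That of row 11841 passed without cultures 3 and 4 (0.73, adjusted p = 0.0419; range 0.0419 to 0.578). The sign for row 4478 turned with the block (0.13) and over single libraries left out ran from -0.32 to 0.17, and for row 6096 it turned with the block (0.75) and ran from -1.69 to 0.25. When single libraries were left out, that of row 1140 ran from -0.13 to 0.24 and that of row 693 from -4.14 to 0.73. The causes were not tested. Rows below a mean log2 CPM of 0, with a median SE of 0.74, allow only large changes to be called.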
